A study of Mus musculus with 6 samples.

Results

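The lysyl oxidase family was followed through its 5 genes, Lox and Loxl1 to Loxl4, together with Bmp1, which encodes the protease that activates the LOX proenzyme. The members were taken by gene symbol, and 6 of 6 were found among the 15909 genes of the expression table. The tissue was left ventricle of adult mice, collected 4 days after surgical myocardial infarction (MI), with 3 libraries from mice injected with PBS and 3 from mice injected with recombinant human CCN3 at 6 µg/kg. All 6 libraries therefore came from infarcted hearts, and the comparison asked what systemic CCN3, a secreted matricellular protein, added to the response to injury. The labels give daily intraperitoneal injections over 4 days, whereas the text of the study gives a later start and fewer injections. C57/B6J mice are named in the methods for the longer CCN3 experiment, and neither the strain nor the age in weeks of the mice used for RNA is given separately. Uninjured hearts were not analysed here. Nothing in the labels states that each library came from a separate animal, so p-values measure the spread between these libraries, which may be technical in part.

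Lysyl oxidases are secreted, copper-dependent amine oxidases. They oxidise lysine and hydroxylysine side chains of collagens and elastin to aldehydes, which then condense into the covalent cross-links that make fibrils stiff and insoluble. LOX and LOXL1 are made with a propeptide, and BMP1 and its relatives cut LOX to its mature form as well as trimming the C-propeptides of fibrillar procollagens. LOXL2, LOXL3 and LOXL4 carry scavenger receptor cysteine-rich domains in place of that propeptide. In the infarcted heart these enzymes are made largely by fibroblasts and myofibroblasts, and cross-linking of new collagen gives the scar its tensile strength and its stiffness.

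The catalytic domain is what the family shares, and its copper site lies in a short histidine-rich stretch of coding sequence. The stretch is printed for the LOX-like members on chromosomes 6, 9, 14 and 19, because it shows how alike the transcripts are where the enzymes do the same work. Each run is 51 bases of the coding strand, 5′ to 3′, from GRCm39 with GENCODE M39 transcripts, and the capitals mark the 27 bases that encode the histidine-rich motif. In every case the first 29 bases lie in one exon and the rest in the next.
Loxl1: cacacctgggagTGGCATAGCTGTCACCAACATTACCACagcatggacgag
Loxl2: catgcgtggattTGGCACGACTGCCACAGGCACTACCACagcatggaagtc
Loxl3: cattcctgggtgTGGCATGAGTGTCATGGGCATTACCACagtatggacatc
Loxl4: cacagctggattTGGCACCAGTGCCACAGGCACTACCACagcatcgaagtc

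In GRCm39 the Loxl1 stretch spans exon 3 (chr9:58201642-58201670) and exon 4 (chr9:58200991-58201012) on the minus strand. The Loxl2 stretch spans exon 10 (chr14:69919759-69919787) and exon 11 (chr14:69926477-69926498) on the plus strand. The Loxl3 stretch spans exon 12 (chr6:83026970-83026998) and exon 13 (chr6:83027097-83027118) on the plus strand. The Loxl4 stretch spans exon 11 (chr19:42588316-42588344) and exon 12 (chr19:42587234-42587255) on the minus strand. Among the printed stretches, Loxl2 and Loxl4 were the closest pair, with 25 of the 27 motif bases identical. Loxl1 and Loxl4 were the most distant, with 18 of 27. The Lox stretch was not compared. Even so, the longest run of identical bases between the coding transcripts of any 2 members was 32 bases, shared by Lox and Loxl1, and in 5 of 15 pairs it was at least 20 bases. The reads were 101 cycles long, so no run shared exactly by 2 members was as long as a read.

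Lox was the most abundant member per length of transcript and Loxl4 the least. On a linear scale of CPM (reads assigned to a gene, scaled to a common library total) per kilobase of the longest coding transcript, the PBS means were 79.2 ± 0.36 for Lox (SD, n = 3 here and below) and 67.5 ± 5.4 for Loxl2. Loxl1 followed at 37.9 ± 2.2, then Bmp1 at 35.2 ± 2.6, Loxl3 at 12.3 ± 0.15 and Loxl4 at 1.55 ± 0.092. The order was the same in the CCN3 group, in which Lox stood at 105.9 ± 0.98 and Loxl2 at 71.2 ± 2.5. Neighbours in this order did not overlap across libraries, with the exception of Loxl1 and Bmp1 in the PBS group. The ventricles therefore held chiefly Lox and Loxl2 transcript, with Loxl3 well below them and little Loxl4.

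CCN3 treated ventricles had higher Lox and Loxl3, and these were the 2 of 6 members that passed the test, at an adjusted p under 0.2, the threshold of the study. Over all genes 0.515% passed as higher and 1.08% as lower (1.6% in either direction), and 0 of 6 members passed as lower. At an unadjusted p under 0.05 in the same limma fit, 3 members were higher and 0 lower, beside 4.05% and 6.59% of all genes, shares that also stand behind the list counts at that threshold. The point estimates of all 6 members were above 0, as were those of 49.4% of all genes, and the median log2 fold change was 0.21 for the members and -0.00 for all genes. In 3 members (Lox, Loxl1 and Loxl3) every CCN3 library lay above every PBS library, as it did in 15.1% of all genes, and 18.2% of all genes were separated in the opposite direction. Members are not independent of each other, and no test was made over them as a group.

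Lox encodes the founding enzyme of the family, needed in mice for sound arteries, and lies at chr18:52649136-52663110 on the minus strand. Its log2 CPM was 8.57, 8.57 and 8.56 in PBS libraries 1 to 3, and 8.97, 8.99 and 8.99 in CCN3 libraries 1 to 3. Both groups were tight and far apart: a gap of 0.40 on the log2 scale separated the lowest CCN3 library from the highest PBS library. Lox rose by 0.42 ± 0.058 (SE) on the log2 scale (95% interval 0.28 to 0.56; 1.34-fold, limma adjusted p = 0.123). The mean went from 8.56 ± 0.0066 to 8.98 ± 0.013. The values had 2 factors of unwanted variation removed before deposit, so these SDs cover only the spread left after removal.

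Loxl3 encodes a relative needed in the mouse embryo for palate and spine, and lies at chr6:83011152-83029543 on the plus strand. Its log2 CPM was 5.69, 5.69 and 5.72 in the PBS libraries and 6.12, 6.06 and 6.04 in the CCN3 libraries. The groups were again clear of each other, with a gap of 0.32 between their nearest libraries. Loxl3 rose by 0.37 ± 0.058 (SE) on the log2 scale (95% interval 0.23 to 0.51; 1.29-fold, limma adjusted p = 0.145), from 5.70 ± 0.018 to 6.07 ± 0.039. Loxl3 thus changed by nearly the same factor as Lox at a much lower level, and the log2 ratio of Lox to Loxl3 overlapped between the groups (2.83 to 2.88 in PBS, 2.85 to 2.95 in CCN3).

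**Figure D1:**
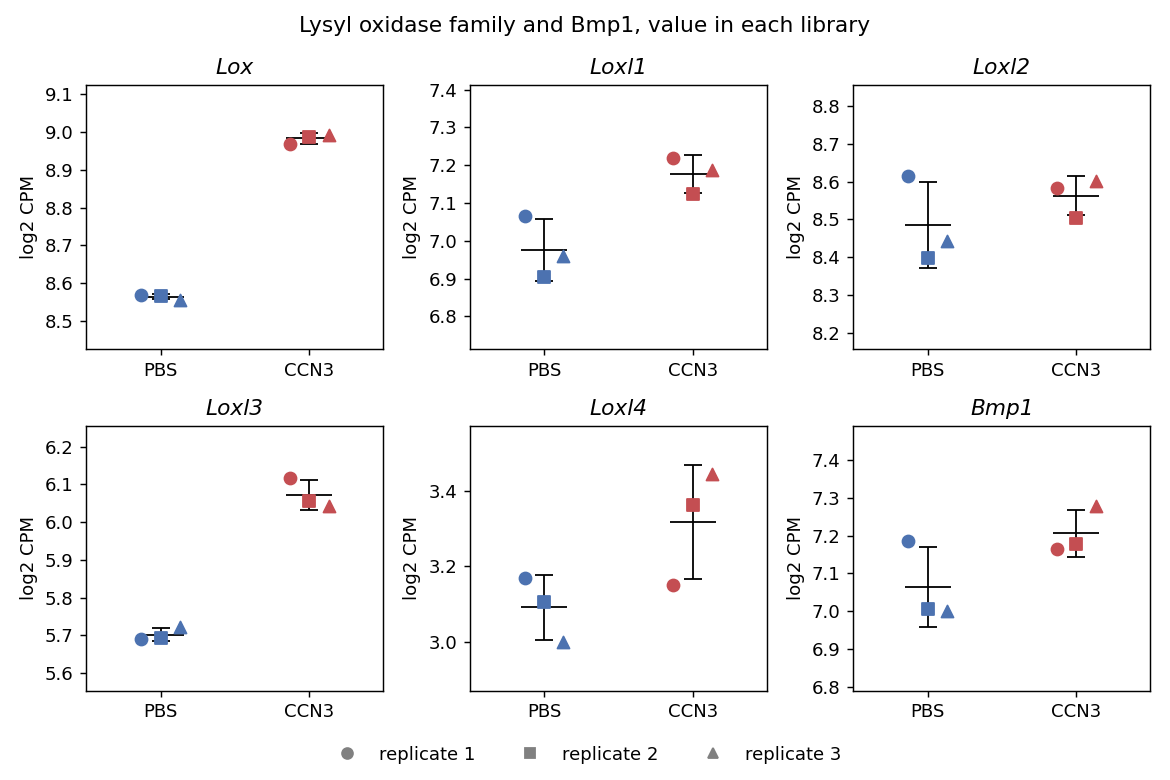
log2 CPM of each member in each of the 6 libraries, PBS in blue and CCN3 in red, with the marker shape giving the replicate number and the black bars the mean and SD (n = 3). All panels span the same range on the log2 scale. Lox (8.56 to 8.57 against 8.97 to 8.99) and Loxl3 (5.69 to 5.72 against 6.04 to 6.12) form tight, separate groups, Loxl1 is separated by a small gap, and Loxl2, Loxl4 and Bmp1 overlap.

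Loxl1, whose product is tied to elastic fibre renewal, lies at chr9:58195014-58220495 on the minus strand. Loxl1 stood at 7.07, 6.90 and 6.96 log2 CPM in the PBS libraries and 7.22, 7.12 and 7.19 in the CCN3 libraries. Every CCN3 library lay above every PBS library, but by a gap of only 0.06, and the PBS libraries spread over more than that. The log2 fold change was 0.20 ± 0.068 (SE; 95% interval 0.04 to 0.36) and did not pass (limma adjusted p = 0.363). Without PBS replicate 1, the highest of the PBS libraries, Loxl1 passed (0.24, limma adjusted p = 0.0993). In that fit 2219 of 15909 genes passed, beside 254 with all libraries.

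Loxl2, whose product is raised in fibrotic tissue, lies at chr14:69846209-69933283 on the plus strand. Its log2 CPM was 8.61, 8.40 and 8.44 in the PBS libraries and 8.58, 8.50 and 8.60 in the CCN3 libraries. PBS replicate 1 was the highest of all 6 libraries and the groups overlapped. The log2 fold change was 0.08 ± 0.080 (SE; 95% interval -0.11 to 0.27; limma adjusted p = 0.797), an interval whose upper end lies below the point estimates of Lox and Loxl3. With a library left out it ran from 0.03 (without PBS replicate 2) to 0.14 (without PBS replicate 1). No test was made between members.

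Loxl4, the least abundant member, lies at chr19:42580711-42601252 on the minus strand. The log2 CPM of Loxl4 was 3.17, 3.11 and 3.00 in the PBS libraries and 3.15, 3.36 and 3.44 in the CCN3 libraries. CCN3 replicate 1 fell among the PBS libraries while the other two CCN3 libraries lay above all of them. The log2 fold change was 0.23 ± 0.12 (SE; 95% interval -0.07 to 0.52; limma adjusted p = 0.588), so a change as large as that of Lox lies within its interval. Without CCN3 replicate 1 it passed (0.31, limma adjusted p = 0.195), in a fit where 1326 of 15909 genes passed, beside 254 with all libraries.

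Bmp1, the activating protease, lies at chr14:70711689-70758178 on the minus strand, on the same chromosome as Loxl2. Its log2 CPM was 7.18 in PBS library 1 and 7.0 in the other two PBS libraries and 7.16, 7.18 and 7.28 in the CCN3 libraries. The groups overlapped through PBS replicate 1, which lay above CCN3 replicates 1 and 2. The log2 fold change was 0.14 ± 0.076 (SE, 95% interval -0.04 to 0.33) and did not pass (limma adjusted p = 0.577). Without PBS replicate 1 Bmp1 did pass (0.20, limma adjusted p = 0.137), as did 2219 of 15909 genes, beside 254 with all libraries. In every member but Loxl3, PBS replicate 1 was the highest of its group, although in Lox only narrowly (8.568 against 8.566 and 8.556).

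**Figure D2:**
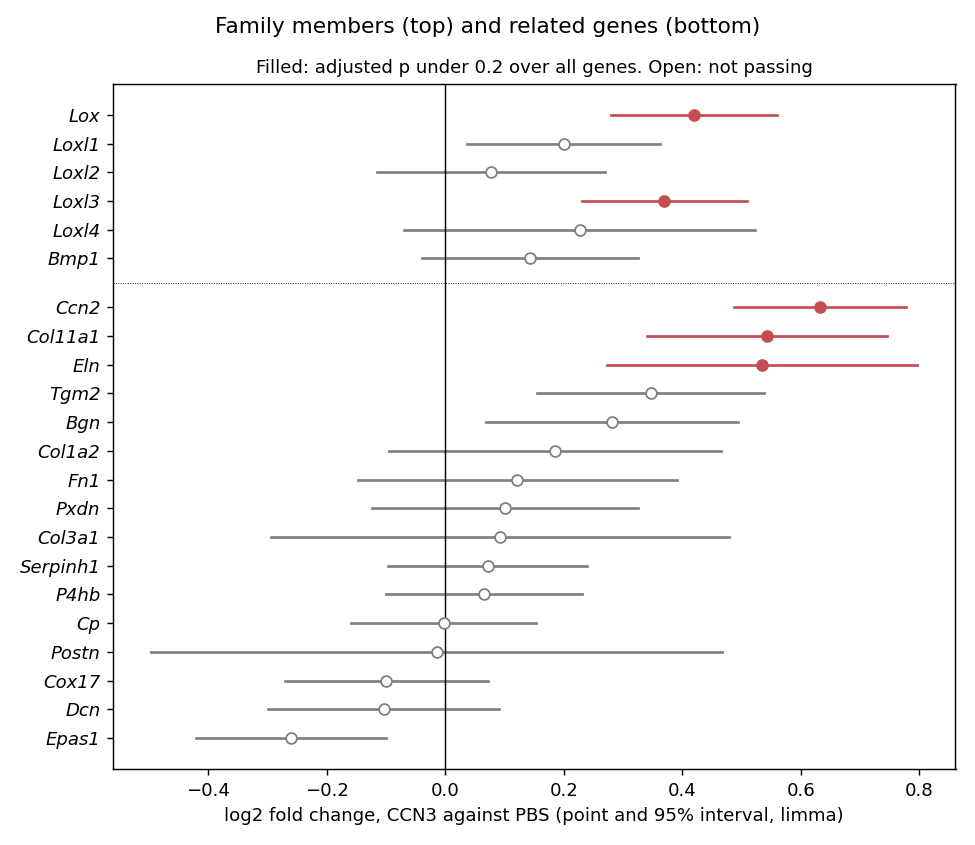
log2 fold change of CCN3 against PBS (x axis) with its 95% interval for the 6 members (top) and for named related genes (bottom, ordered by fold change), 3 libraries a group. Filled points passed at an adjusted p under 0.2 over all genes: Lox (0.42) and Loxl3 (0.37) among the members, Ccn2 (0.63), Col11a1 (0.54) and Eln (0.54) among the related genes.

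The calls of Lox and Loxl3 held with any 1 library left out. The factors of unwanted variation had been removed before any library was left out, so these fits cannot show full independence of 1 library. Each of these fits also entered 1 direction for the removed variation in place of 2. It therefore kept the 2 residual degrees of freedom of the full fit. With each library left out in turn, Lox passed in 6 of 6 fits, with a log2 fold change between 0.41 and 0.43 (limma adjusted p 0.0641 to 0.193), and so did Loxl3, between 0.35 and 0.38 (limma adjusted p 0.0641 to 0.198). Both calls were lost when the prior variance was taken as constant over expression levels, in place of a trend: the fold changes were then as before, and the limma adjusted p was 0.383 for Lox and 0.413 for Loxl3. Under that setting 1 gene of 15909 passed in all.

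**Figure D3:**
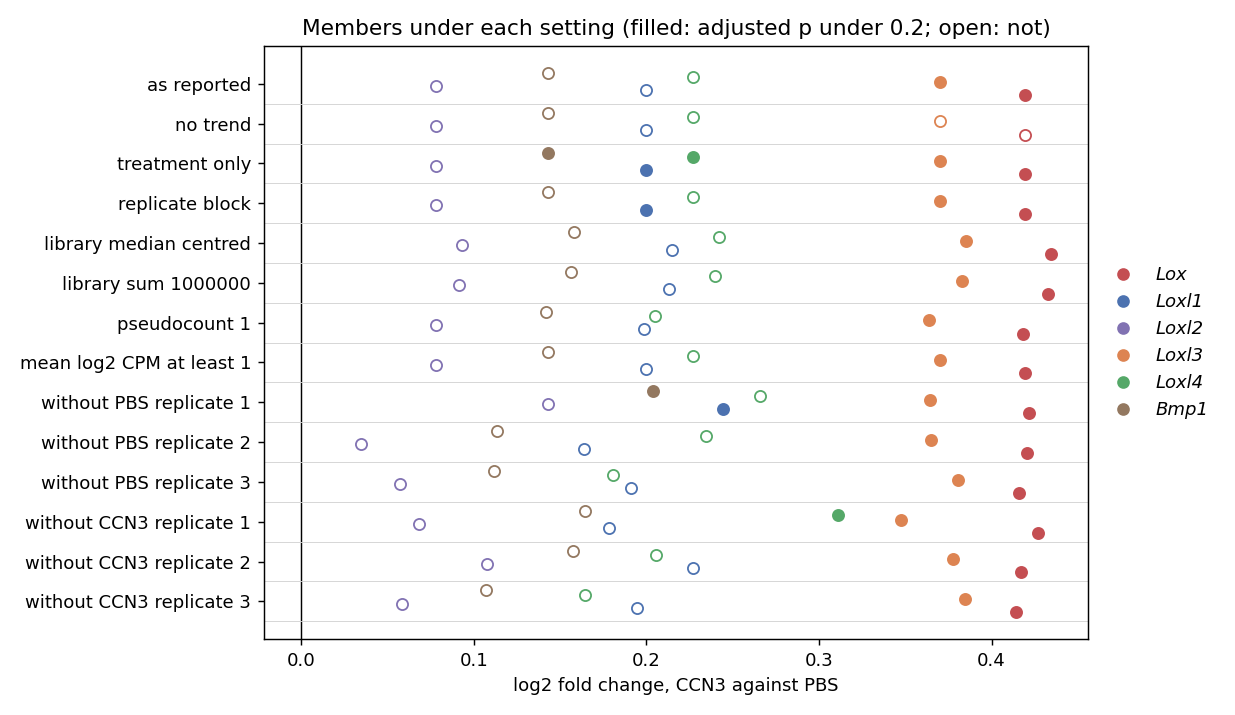
log2 fold change of CCN3 against PBS (x axis) of each member under each processing setting (rows), coloured by gene. Points are filled where the adjusted p was under 0.2 and open where it was not. Lox and Loxl3 stay at the right in every row, between 0.35 and 0.43, and are open only in the row without a trend, while Loxl2 stays the lowest.

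Summed over the 5 lysyl oxidase genes, transcript was higher in CCN3 treated ventricles, and most of the difference was Lox. The sum was 966, 896 and 910 CPM in the PBS libraries and 1111, 1087 and 1121 CPM in the CCN3 libraries, so that every CCN3 library exceeded every PBS library. The mean went from 924 ± 37 to 1106 ± 18 CPM, 1.20-fold. Of the difference of 182 CPM, Lox made up 70.0%, Loxl2 10.6%, Loxl1 10.2%, Loxl3 8.36% and Loxl4 0.81%. CPM is not per length of transcript, and no test was made of the sum.

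Lox made up more of the family pool in CCN3 treated ventricles and Loxl2 less. The share of Lox in the summed CPM was 39.3%, 42.3% and 41.4% in the PBS libraries and 45.0%, 46.7% and 45.5% in the CCN3 libraries, so the groups did not overlap. The share of Loxl2 was 40.6%, 37.6% and 38.3% in the PBS libraries and 34.5%, 33.4% and 34.7% in the CCN3 libraries, lower without overlap although Loxl2 itself did not pass. A share does not depend on how a library was scaled, and because the shares add up to a whole, a larger share of Lox lowers the others. The Loxl3 share, 5.35% to 5.81% in PBS, was 5.88% to 6.24% in CCN3, while the shares of Loxl1 (means of 13.6% and 13.1%) and Loxl4 overlapped. The log2 ratio of Lox to Loxl2 gives the same picture: -0.05, 0.17 and 0.11 in the PBS libraries against 0.39, 0.48 and 0.39 in the CCN3 libraries. The log2 ratio of Lox to Bmp1, the enzyme that activates it, was 1.38 to 1.56 in PBS and 1.72 to 1.81 in CCN3, also without overlap. These shares and ratios are descriptions with no test.

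**Figure D4:**
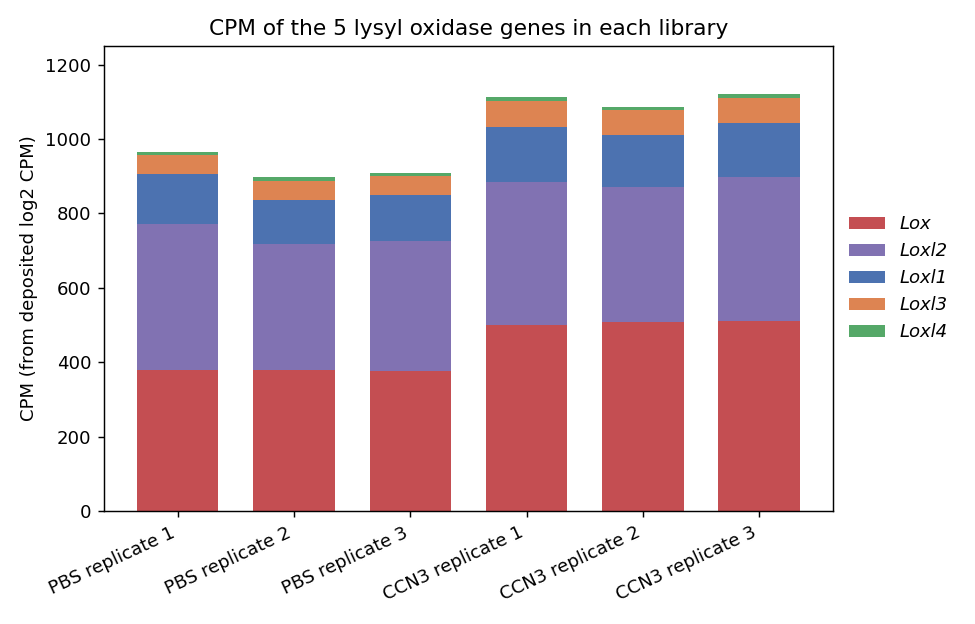
Stacked CPM of the 5 lysyl oxidase genes in each library (y axis, linear, from 0). The PBS bars reach 896 to 966 CPM and the CCN3 bars 1087 to 1121 CPM, with the difference mostly in the lowest segment, Lox, and little in the segment above it, Loxl2.

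The genes whose library-to-library profile was closest to that of Lox were found among 12586 genes, by the root mean square (RMS) difference of mean-centred log2 CPM over the 6 libraries. In order they were Itgbl1 (RMS difference 0.013), which encodes an integrin beta-like secreted protein, Scel, Rhod, Raph1, which encodes an actin regulator of lamellipodia, and Nyap1. Of these, Itgbl1 (log2 fold change 0.44) and Raph1 (0.45) passed, both at a limma adjusted p of 0.119. For Loxl3 the closest were Pmepa1 (RMS difference 0.024), a TGF-beta target that dampens TGF-beta signalling, Gem, Nyap1, Peg10 and the amino acid transporter gene Slc38a2. Pmepa1 (log2 fold change 0.36, limma adjusted p = 0.158) and Slc38a2 (0.31, limma adjusted p = 0.178) passed, and neither passed without PBS replicate 3 (limma adjusted p = 0.202 and 0.241). Loxl3 stood at rank 11 in the list for Lox and Lox at rank 16 in the list for Loxl3, with an RMS difference of 0.042 between them. Over 6 libraries in 2 groups this measure favours genes whose fold change is of similar size.

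Around the family, 75 of 82 genes listed by role were measured, of which 3 rose and 0 fell, beside 0.515% and 1.08% of all genes. Of those 3 genes, 2 were substrates. The fibrillar collagens and elastin had 2 of 12 members that rose (5 higher and 0 lower at an unadjusted p under 0.05 in the limma fit). Their point estimates were above 0 in 11 of 12, beside 49.4% of all genes. The median log2 fold change was 0.24, beside -0.00 for all genes. Eln, which encodes elastin, had log2 CPM of 7.16, 6.83 and 6.97 in the PBS libraries and 7.66, 7.40 and 7.51 in the CCN3 libraries. It lay higher in every CCN3 library and rose by 0.54 ± 0.11 (SE; limma adjusted p = 0.190). This call was lost without PBS replicate 3 (limma adjusted p = 0.281) or without CCN3 replicate 3 (0.237). Col11a1, a minor fibrillar collagen chain that regulates fibril diameter, was at 4.42, 4.62 and 4.59 in the PBS libraries and 5.09, 5.14 and 5.04 in the CCN3 libraries. The groups were well apart, and Col11a1 rose by 0.54 ± 0.084 (SE; limma adjusted p = 0.145) and passed with any 1 library left out. The most abundant substrates, Col3a1 (0.09 ± 0.16, limma adjusted p = 0.891) and Col1a2 (0.19 ± 0.12, limma adjusted p = 0.647), did not pass.

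Of the genes for procollagen and lysyl oxidase processing and for tethering the enzymes to matrix, 0 of 14 passed in the limma fit (5 higher and 1 lower at an unadjusted p under 0.05), with a median log2 fold change of 0.12. The most abundant were Postn, whose product periostin helps BMP1 act on LOX (-0.01 ± 0.20, limma adjusted p = 0.991), and Fn1, whose product fibronectin binds both (0.12 ± 0.11, limma adjusted p = 0.768). Of genes named after their values were seen, Pcolce, an enhancer of procollagen C-propeptide cleavage, was at 0.24 ± 0.069 (limma adjusted p = 0.291) and Fbln5, which tethers LOXL1 to elastic fibres, at 0.22 ± 0.057 (limma adjusted p = 0.264). Tll2, a Bmp1 relative at a low level, had the lowest point estimate of the list (-0.81 ± 0.20, limma adjusted p = 0.234). None of these passed.

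Upstream of cross-linking, collagen lysines are hydroxylated and the chains folded. Of 17 genes for lysine and proline hydroxylation and collagen folding, 0 passed in the limma fit (4 higher and 1 lower at an unadjusted p under 0.05). Their median was 0.07, with Serpinh1, the collagen chaperone, at 0.07 ± 0.070 and P4hb, a subunit of prolyl 4-hydroxylase, at 0.07 ± 0.069. The point estimates ran from -0.37 (Colgalt2, a collagen galactosyltransferase) to 0.35 (P4ha3, a prolyl 4-hydroxylase subunit). Of 9 measured copper supply genes, 0 passed (2 higher and 0 lower at an unadjusted p under 0.05) and the median was 0.00. The 2 higher genes were Mt2 (0.83 ± 0.23, limma adjusted p = 0.278) and Mt1 (0.47 ± 0.19, limma adjusted p = 0.466). Atp7a, which encodes the pump that loads copper into lysyl oxidases, was at -0.01 ± 0.065 (95% interval -0.16 to 0.15). The most abundant genes of that list were Cp (ceruloplasmin, -0.00 ± 0.065) and Cox17 (-0.10 ± 0.071).

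Other cross-linking or copper amine oxidase enzymes had 0 of 6 measured genes that passed (1 higher and 0 lower at an unadjusted p under 0.05) and a median of 0.12. Tgm2, the tissue transglutaminase, was nearest to the threshold (0.35 ± 0.079, limma adjusted p = 0.212), and Pxdn, the peroxidasin that cross-links collagen IV, was at 0.10 ± 0.094. Of 10 measured targets of Bmp1 other than the fibrillar collagens, 0 passed (2 higher and 1 lower at an unadjusted p under 0.05). Their median was 0.15, with Bgn (biglycan) at 0.28 ± 0.089 (limma adjusted p = 0.336) and Dcn (decorin) at -0.10 ± 0.081. Col7a1, at a low level, was nearest to the threshold in that list (0.64 ± 0.14, limma adjusted p = 0.203). The gene counted as lower was Ltbp1 (-0.26 ± 0.069, limma adjusted p = 0.265).

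Among 7 inducers of lysyl oxidase genes the median was 0.06, with 1 higher and 1 lower at an unadjusted p under 0.05 in the limma fit. At the adjusted threshold 1 rose and 0 fell. That gene was Ccn2, also called connective tissue growth factor and a relative of the injected protein. The log2 CPM of Ccn2 was 8.24, 8.29 and 8.25 in the PBS libraries and 8.85, 8.92 and 8.91 in the CCN3 libraries. The groups were clear of each other, and Ccn2 rose by 0.63 ± 0.060 (SE; limma adjusted p = 0.110, the lowest reached and shared with other genes). The most abundant other inducer, Epas1, which encodes a hypoxia-inducible factor, was at -0.26 ± 0.067 (limma adjusted p = 0.254). Tgfb1, the classical inducer, was at 0.12 ± 0.057 and Hif1a at 0.06 ± 0.10, and neither passed.

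**Figure D5:**
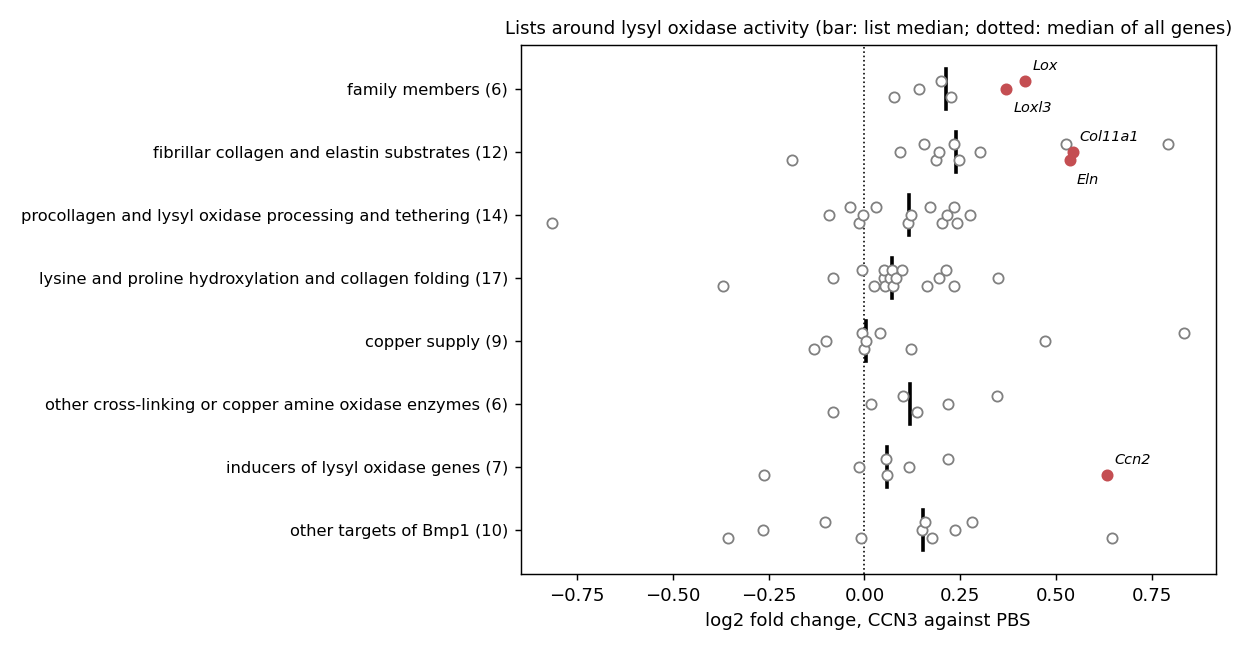
log2 fold change of CCN3 against PBS (x axis) for each measured gene of the family and of 7 lists by role (rows, number of genes in brackets). Filled points passed at an adjusted p under 0.2, black bars are list medians and the dotted line is the median of all genes. The family (median 0.21) and its substrates (0.24) have the highest medians, and copper supply (0.00) lies at the median of all genes.

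In bulk tissue, fewer cells of a type and less RNA per cell cannot be told apart. Of the fibroblast markers 0 of 6 passed in the limma fit (1 higher and 0 lower at an unadjusted p under 0.05), and their summed level overlapped between PBS (688 to 782 CPM) and CCN3 (689 to 768 CPM). Of the myofibroblast markers 0 of 5 passed (0 at an unadjusted p under 0.05), with sums of 2647 to 4096 CPM in PBS and 2795 to 3414 CPM in CCN3. Among single fibroblast markers, Pdgfra (0.18 ± 0.067) and Tcf21 (0.18 ± 0.075) lay higher in every CCN3 library without passing. Thy1 (0.10 ± 0.072) and Pdgfrl (0.18 ± 0.15) overlapped between the groups, and so did Dpt (-0.10 ± 0.12) and Ddr2 (-0.05 ± 0.082). The list's median log2 fold change was 0.14. The part of fibroblast content in the lysyl oxidase values was not tested. Of the smooth muscle and pericyte markers 1 of 6 passed (1 higher and 2 lower at an unadjusted p under 0.05): Kcnj8 fell (-0.54 ± 0.067, limma adjusted p = 0.119). The summed level of that list was 1128 to 1379 CPM in PBS and 887 to 983 CPM in CCN3, most of it Rgs5 (-0.44 ± 0.11, not passing), whereas Cnn1 was at 0.34 ± 0.12 and Cspg4 at 0.21 ± 0.11, neither passing. Of the cardiomyocyte markers 1 of 7 passed (1 higher and 2 lower at an unadjusted p under 0.05). Tnni3 fell (-0.44 ± 0.083, limma adjusted p = 0.177). This call was lost without PBS replicate 3 (limma adjusted p = 0.244) or without CCN3 replicate 3 (0.211). Pln (-0.45 ± 0.12) lay lower in every CCN3 library, and Ryr2 (0.25 ± 0.079) and Actn2 (0.14 ± 0.071) higher, none of them passing. The list's sum overlapped between the groups (25941 to 30436 and 25024 to 27129 CPM). Of endothelial, macrophage and neutrophil markers 0 passed (0 higher and 2 lower at an unadjusted p under 0.05) and the sums overlapped. Of 6 skeletal muscle markers 3 were measured, none of them the defining fast myosins Myh1, Myh2 and Myh4, and 0 passed (1 higher and 1 lower at an unadjusted p under 0.05), with sums of 525 to 639 CPM in PBS and 407 to 514 CPM in CCN3. That sum was nearly all Ckm, which the heart also expresses (-0.40 ± 0.11), while the low Tnnt3 (1.49 ± 0.36) and Mylpf (0.87 ± 0.52) had point estimates above 0. The part of these markers in the lysyl oxidase values was not tested.

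Each of the 6 members is overlapped by an annotated gene on the opposite strand, and for 4 of them such a gene was measured. The Lox locus shares 1444 bases with Gm41724, a long non-coding RNA at a mean log2 CPM of -0.58, and Loxl3 shares 1947 bases with Htra2, whose log2 fold change was 0.13 ± 0.075 (limma adjusted p = 0.627). R3hcc1 overlaps Loxl2 by 943 bases (0.12 ± 0.078) and R3hcc1l overlaps Loxl4 by 78 bases (-0.03 ± 0.074). The libraries kept strand, and whether strand was used in quantification is not given in the sources used here. None of these measured neighbours passed, and Gm41724 lay far below Lox.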

How the data were processed

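Total RNA from left ventricles was made into stranded mRNA libraries and read for 101 cycles. As the labels and the study's methods describe, the authors quantified reads against GRCm39 with Salmon 1.4.0, used edgeR, removed 2 factors of unwanted variation and deposited log2 CPM values. The authors' tables of fold changes and p-values were not used. No counts were analysed here, so depth per library is unknown. The libraries summed to 1001644 to 1031634 CPM and correlated at r = 0.989 to 0.998 across genes, which are not independent replicates.

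Within groups, the deposited log2 values spread over only 2 of 4 possible dimensions. The 2 empty directions (relative singular value under 1e-06) were entered with treatment in limma 3.58.1 (R 4.3.3; trend, two-sided, Benjamini-Hochberg over 15909 genes), which left 2 residual degrees of freedom and 4.47 from the prior. Levels per length used GENCODE M39 transcripts (Python 3.11.15, pandas 2.3.3, matplotlib 3.10.9).

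The members and gene lists were chosen with earlier results of these data known. Named genes were every member, the passing genes and the 2 most abundant of each list, and the 5 nearest profiles (mean log2 CPM of at least 1) of each passing member. Pcolce, Fbln5, Tll2, Atp7a, Mt1, Mt2, Col7a1, Ltbp1, Tgfb1, Hif1a, Colgalt2, P4ha3 and the single markers were named after their values were seen. Alternatives were the trend, the covariates, library scaling, a pseudocount of 1 CPM, a filter on low values, a replicate block and leaving out each library.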

Additional observations from a re-analysis of the deposited data

How the results depend on the processing

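The number of genes that passed (254, of them 82 higher) depended on how the spread was modelled. The trend, the covariates, the replicate block and the filter on low values cannot alter a log2 fold change. Under library scaling, the pseudocount and leaving out each library, which can, no member changed direction. With a library left out the log2 fold changes of Lox (0.41 to 0.43) and Loxl3 (0.35 to 0.38) moved least, and those of Loxl1 (0.16 to 0.24), Loxl2 (0.03 to 0.14), Loxl4 (0.16 to 0.31) and Bmp1 (0.11 to 0.20) moved more. With no trend in the prior 1 gene and 0 of 6 members passed. With treatment only, the removed directions ignored, 4771 genes and 5 members passed, a fit that counts degrees of freedom the values no longer hold. With the replicate number as a block (replicate block, which cannot also hold the removed directions) 5932 genes and 3 members passed (Lox, Loxl1 and Loxl3). Same-numbered libraries correlated at 0.13, 0.97 and -0.98 in their deviations from the group means. Not every library correlated best with its own number. Because 2 factors had been removed from the values, these correlations cannot show whether the numbers paired the libraries. Median centring, a fixed library sum, a pseudocount of 1 CPM and the filter on low values gave 174, 242, 224 and 272 genes and 2 members each.

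With each library left out, 50 (without PBS replicate 3) to 2219 (without PBS replicate 1) genes and 2 to 4 members passed. The count was also more than 1.5 times away without PBS replicate 2 (437), CCN3 replicate 1 (1326) and CCN3 replicate 3 (127). Genes separated as higher in CCN3 numbered 2407, and 2734 to 4026 with a library left out. Members separated as higher numbered 3, and 5 with median centring. That setting separated 18.3% of all genes as higher and 15.5% as lower, against 15.1% and 18.2% as deposited. With a library left out, 3 to 6 members were separated as higher. All 6 were separated without PBS replicate 1, where 4026 of 15909 genes were separated as higher and 4238 as lower. Adding 1 CPM before taking shares moved no difference in share between CCN3 and PBS by more than the PBS SD of that share. Depth is unknown from these values, so counting error could not be given, which bears most on Loxl4, the lowest member.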
